A study of Mus musculus with 23 samples.

Results

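The transcription factor Nrf2 (gene *Nfe2l2*), its inhibitor Keap1 and 8 of its antioxidant target genes were followed through 5 syngeneic mouse tumor models and through cancer-associated fibroblasts (CAFs) of 4 of them. The 10 members, *Nfe2l2*, *Keap1*, *Nqo1*, *Gclc*, *Gclm*, *Hmox1*, *Txnrd1*, *Slc7a11*, *Srxn1* and *Gsr*, were taken by gene symbol from the 24940 symbols listed in each of the tumor and the CAF table. No cutoff on their values was used, but they were chosen with earlier results of these data known. Where a symbol had several RefSeq transcripts, the one with the largest mean was used. All 10 were found in both tables, and all 10 passed the filter on low counts in tumors, while 9 passed the filter on low values in CAFs (*Slc7a11* did not). Tumors had grown in adult female C57BL/6 mice after subcutaneous injection of 500000 cells of a cultured line into the right or both flanks, with no transgene or drug given in the labels. The lines, each a single established cancer line, were B16-F10 (B16, melanoma), EO771.LMB (EO771, breast cancer), LL/2 (LL2, lung cancer), MC38 (colon cancer) and Pan02 (pancreatic cancer). The titles of the 3 Pan02 tumors read Pan01, and they were grouped by their labelled cell line. RNA came from fragments of whole tumors, 3 per model and 15 in all, and from live CD45-FAP+ cells sorted from EO771, LL2, MC38 and Pan02 tumors in 2 rounds of sorting, 2 libraries per model and 8 in all. CT26 tumors and CAFs, and CAFs of B16 tumors, were not analysed here.

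Nrf2 is made continuously and, in unstressed cells, is bound by Keap1, an adaptor of a Cul3 ubiquitin ligase that hands it to the proteasome. Oxidants and electrophiles modify cysteines of Keap1, Nrf2 then escapes degradation, pairs with a small Maf protein and binds antioxidant response elements near its target genes. The targets renew glutathione and thioredoxin, reduce quinones and break down heme. Since this control acts on the protein, the mRNA levels of *Nfe2l2* and *Keap1* do not report Nrf2 activity by themselves.

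Promoter windows of 4 members are shown first, because these were the targets with the largest fold between model means among those with a window, and because a window can be read for the core of the antioxidant response element. The windows are from RefSeq on GRCm38.p6 and run from 250 bases before to 50 bases after a transcript start, and 7 of the 10 members had an entry (*Gclc*, *Hmox1* and *Gsr* had none). Capitals mark matches, on either strand, to TGACNNNGC or to TGAGNNNGC, the latter added after the first search.
*Nqo1*, chr8:107403156-107403455, minus strand: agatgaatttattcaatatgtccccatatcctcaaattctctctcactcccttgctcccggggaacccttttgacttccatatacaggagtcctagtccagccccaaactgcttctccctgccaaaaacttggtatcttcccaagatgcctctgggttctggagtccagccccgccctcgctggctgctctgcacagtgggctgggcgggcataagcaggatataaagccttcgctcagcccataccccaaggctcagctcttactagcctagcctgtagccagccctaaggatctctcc
*Slc7a11*, chr3:50443564-50443863, minus strand: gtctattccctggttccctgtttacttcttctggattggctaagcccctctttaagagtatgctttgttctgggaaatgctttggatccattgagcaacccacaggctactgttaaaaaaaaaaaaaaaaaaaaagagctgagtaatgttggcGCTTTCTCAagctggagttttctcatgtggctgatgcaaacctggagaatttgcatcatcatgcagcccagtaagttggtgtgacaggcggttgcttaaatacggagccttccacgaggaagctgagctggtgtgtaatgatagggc
*Gclm*, chr3:122245307-122245606, plus strand: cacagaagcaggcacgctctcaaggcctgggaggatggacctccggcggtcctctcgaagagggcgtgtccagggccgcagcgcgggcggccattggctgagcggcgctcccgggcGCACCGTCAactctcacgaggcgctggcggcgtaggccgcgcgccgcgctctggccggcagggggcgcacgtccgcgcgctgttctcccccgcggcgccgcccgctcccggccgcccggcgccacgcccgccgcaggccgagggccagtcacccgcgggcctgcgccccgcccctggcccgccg
*Srxn1*, chr2:152105274-152105573, plus strand: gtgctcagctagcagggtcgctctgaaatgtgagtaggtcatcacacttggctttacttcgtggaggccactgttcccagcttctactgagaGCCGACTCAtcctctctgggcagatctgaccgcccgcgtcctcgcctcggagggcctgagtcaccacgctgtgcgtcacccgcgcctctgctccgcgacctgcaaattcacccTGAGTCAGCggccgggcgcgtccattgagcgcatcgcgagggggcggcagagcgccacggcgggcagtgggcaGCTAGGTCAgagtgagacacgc
The first motif was found in windows of *Nfe2l2*, *Gclm*, *Srxn1* and *Txnrd1* (4 members), and the second in those of *Srxn1* and *Slc7a11*. No match to either lay in the windows of *Nqo1* and *Keap1*. Over all 32851 windows, 12.4% held the first motif, 17.6% the second and 27.8% at least 1 of them, so such letters are common, and a match is a description of sequence and not of binding. In *Srxn1* the match on the plus strand starts 45 bases before the start site and the others lie on the minus strand.

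Summed counts per tumor ran from 10035173 to 21946486, and the counts recovered from CAF values from 6223433.5 to 19537392.5. Tumor levels are given as CPM, counts scaled to a common library total after TMM scaling, and p-values measure the spread between tumors of a model, which may be from separate mice or from both flanks of 1 mouse. The labels were checked against markers. The 5 melanocyte markers summed to 10269 to 12245 RPKM (reads divided by transcript length and library total) in B16 tumors and to at most 15.03 elsewhere. The 5 epithelial markers (*Epcam*, *Krt8*, *Krt18*, *Krt19* and *Cdh1*) summed to 1258 to 1957 RPKM in Pan02, 671 to 704 in EO771 and 296 to 486 in LL2 tumors, but to 4.58 to 36.2 in MC38 tumors. *Krt8* made up most of the sum in EO771, and *Epcam*, a defining marker of epithelium, was at most 1.85 RPKM in any tumor. In whole tumors, fewer cells of a type and less RNA per cell cannot be told apart.

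MC38 tumors stood at the top for most targets and B16 tumors at or near the bottom for several. Against the mean of the other 4 models, *Nqo1*, *Gclm*, *Slc7a11* and *Gsr* were higher in MC38 (4 of 10 members, against 11.2% of all genes tested) and none was lower (8.24% of all genes). *Nqo1*, *Slc7a11*, *Srxn1* and *Gsr* were lower in B16 (4 members, against 19.6%) and none was higher (13.1%). In LL2, *Nqo1*, *Hmox1* and *Srxn1* were higher (3 members, against 8.51%) and none was lower (8.29%). In EO771, *Gclm* and *Slc7a11* were lower (2 members, against 13.7%) and none was higher (9.71%). Pan02 tumors had 1 lower member, *Nqo1* (7.93% of all genes), and none higher (18.8%). Higher and lower (called) mean at least 2-fold at an adjusted p under 0.05 (edgeR's quasi-likelihood test over 15722 genes, Benjamini-Hochberg adjustment). The median log2 fold change of the 10 members was 0.70 in MC38, 0.30 in LL2, -0.21 in Pan02, -0.38 in EO771 and -0.79 in B16, while that of all genes lay between -0.04 and 0.05. All 10 members differed among the 5 models by the F test (adjusted p under 0.05), as did 91.1% of all genes.

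**Figure D1:**
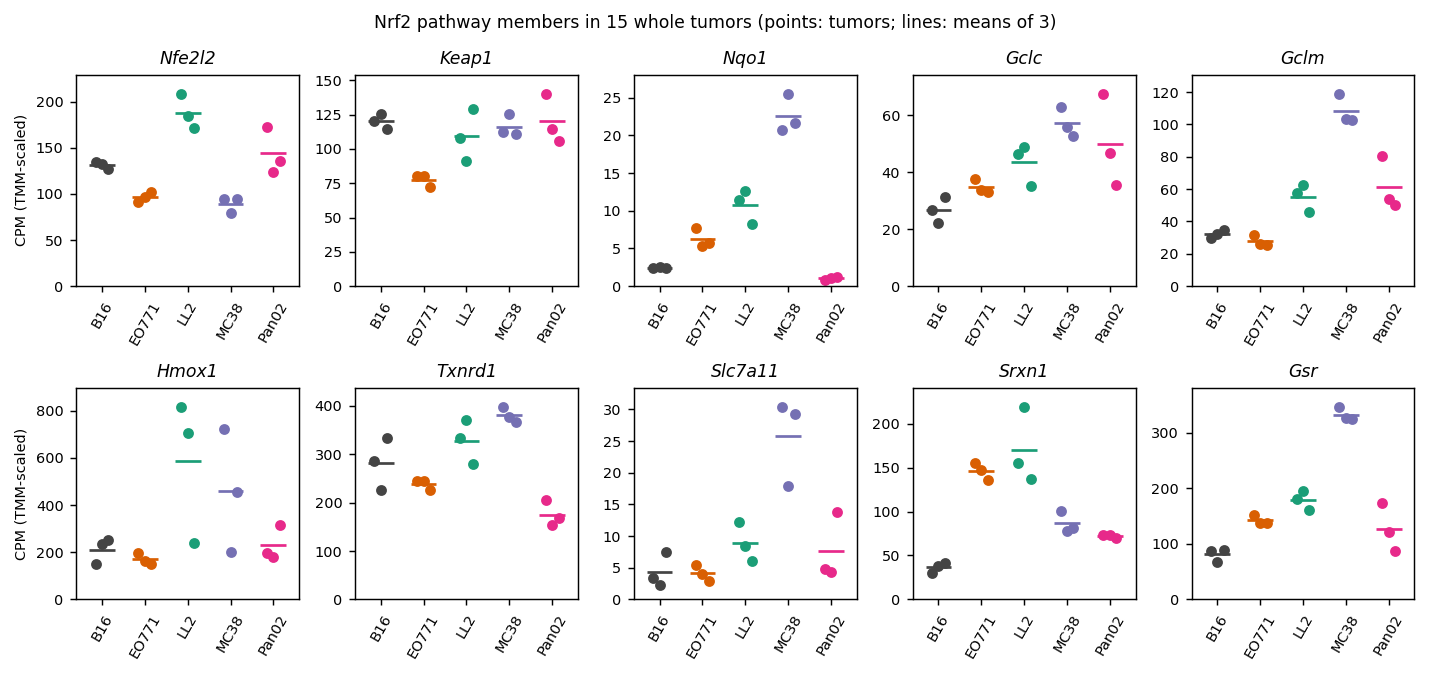
CPM of each member (vertical axes, each from 0) in the 15 tumors by model (horizontal axes), with points for tumors and lines for the means of 3. MC38 tumors lie above all others for *Nqo1*, *Gclm*, *Slc7a11* and *Gsr*, and *Hmox1* spreads widely within LL2 and MC38.

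The 2 regulators differed less between models than any target, by 2.11-fold for *Nfe2l2* and 1.55-fold for *Keap1* between the highest and the lowest mean. *Nfe2l2* (chr2:75675513-75704663, minus strand) had 208, 184 and 171 CPM in the LL2 tumors, 172, 124 and 135 in Pan02 and 134, 133 and 127 in B16. In EO771 it had 91.6, 96.8 and 102 CPM and in MC38 94.2, 79.0 and 94.1. LL2 was thus the highest model on average and MC38, where most targets were highest, the lowest, at 89.1 ± 8.74 CPM (SD, n = 3) against 188 ± 18.8 CPM (SD, n = 3). The log2 fold change against the other models was 0.74 (SE 0.09, edgeR, adjusted p = 3.28e-05) in LL2 and -0.61 (SE 0.10, edgeR, adjusted p = 0.000238) in MC38, in both cases under 2-fold. In the order of means, LL2 differed from Pan02 (edgeR, adjusted p = 0.0194) and B16 from EO771 (edgeR, adjusted p = 0.00781), while Pan02 and B16, and EO771 and MC38, did not differ beyond their spread.

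*Keap1* (chr9:21229730-21239332, minus strand) lay between 72.1 and 140.2 CPM in all 15 tumors. The 3 EO771 tumors, at 80.5, 79.9 and 72.1 CPM, were below the other 12, with a log2 fold change of -0.59 (SE 0.11, edgeR, adjusted p = 0.000473). In the order of means, LL2 differed from EO771 (edgeR, adjusted p = 0.00785), and the 3 other pairs of neighbours did not differ beyond their spread. Reads were counted without strand, and 10.9% of the exon bases of *Keap1* are shared with the antisense gene *Gm16754*, whose reads over these bases cannot be told apart from its own.

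*Nqo1* (chr8:107388225-107403205, minus strand), which encodes the quinone reductase most often read as a marker of Nrf2 activity, separated the models best. It had 20.7, 25.5 and 21.6 CPM in the MC38 tumors, 11.5, 12.6 and 8.20 in LL2 and 7.73, 5.26 and 5.75 in EO771. In B16 it had 2.36, 2.49 and 2.44 CPM and in Pan02 0.782, 1.08 and 1.26. No 2 models overlapped, and the mean in MC38, 22.6 ± 2.56 CPM (SD, n = 3), was 21.7-fold that in Pan02, 1.04 ± 0.242 CPM (SD, n = 3). All 4 pairs of neighbours differed, with edgeR adjusted p between 0.00017 and 0.0102. Against the other 4 models the log2 fold change was 2.64 (SE 0.15, edgeR, adjusted p = 2.45e-08) in MC38 and 1.30 (SE 0.16, edgeR, adjusted p = 2.37e-05) in LL2. It was -1.37 (SE 0.20, edgeR, adjusted p = 3.77e-05) in B16 and -2.91 (SE 0.22, edgeR, adjusted p = 1.58e-07) in Pan02, whereas EO771, at 0.33, did not pass.

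Glutathione is made from cystine, brought in by the antiporter subunit encoded by *Slc7a11*, in a first step run by glutamate-cysteine ligase, whose catalytic subunit is *Gclc* and whose modifier subunit is *Gclm*. *Gclm* (chr3:122245557-122267215, plus strand) had 119, 104 and 103 CPM in MC38, 80.4, 54.0 and 50.1 in Pan02 and 57.8, 62.4 and 45.8 in LL2. It had 30.1, 32.1 and 34.8 CPM in B16 and 31.7, 25.9 and 25.5 in EO771. The MC38 tumors were above the other 12, with a log2 fold change of 1.37 (SE 0.12, edgeR, adjusted p = 1.37e-06), and EO771 was lower, at -1.08 (SE 0.15, edgeR, adjusted p = 3.82e-05) on average, though its highest tumor overlapped B16. MC38 differed from its neighbour Pan02 (edgeR, adjusted p = 0.00111) and LL2 from B16 (edgeR, adjusted p = 0.0018). Of its exon bases, 4.71% are shared with the genes *Gm17494* and *Gm6061*. *Gclc* (chr9:77754535-77794489, plus strand) moved less, from 22.2 to 31.3 CPM in B16 to 52.8 to 63.0 in MC38. Its largest log2 fold changes were -0.77 (SE 0.17, edgeR, adjusted p = 0.00154) in B16, whose 3 tumors lay below the other 12, and 0.60 (SE 0.16, edgeR, adjusted p = 0.00541) in MC38, and no pair of neighbours differed.

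*Slc7a11* (chr3:50364936-50443613, minus strand) was low throughout, but 30.4, 17.9 and 29.3 CPM in the MC38 tumors stood above all others. It had 12.3, 8.45 and 6.14 CPM in LL2 and 4.79, 4.32 and 13.8 in Pan02. In B16 it had 3.44, 2.24 and 7.43 CPM and in EO771 5.51, 4.08 and 2.96. The third tumor of Pan02 and the third of B16 stood well above the others of their model. The log2 fold change was 2.11 (SE 0.34, edgeR, adjusted p = 0.000183) in MC38, which also differed from its neighbour LL2 (edgeR, adjusted p = 0.0219). Values for B16 and EO771 were -1.07 (SE 0.42, edgeR, adjusted p = 0.0403) and -1.15 (SE 0.43, edgeR, adjusted p = 0.0355). Both calls were lost when single tumors were left out, 9 of the 15 in turn for B16 and 7 for EO771. Without the second B16 tumor the B16 value was -0.75 (edgeR, adjusted p = 0.184), and without the third EO771 tumor the EO771 value was -0.96 (edgeR, adjusted p = 0.143).

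*Gsr* (chr8:33653238-33698162, plus strand), glutathione reductase, returns oxidized glutathione to its reduced form. It had 346, 326 and 324 CPM in MC38, 180.2, 195 and 160.4 in LL2 and 152, 138 and 138 in EO771. It had 174, 122 and 86.7 CPM in Pan02 and 86.2, 66.9 and 89.7 in B16. The MC38 tumors were tight and far above the rest, at 332 ± 12.1 CPM (SD, n = 3) and a log2 fold change of 1.38 (SE 0.14, edgeR, adjusted p = 3.49e-06), and differed from their neighbour LL2 (edgeR, adjusted p = 0.00209). B16 was lowest, with -1.16 (SE 0.17, edgeR, adjusted p = 3.83e-05), and differed from Pan02 (edgeR, adjusted p = 0.00922), although 1 Pan02 tumor lay within the range of B16.

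In the thioredoxin branch, *Txnrd1* encodes the cytosolic thioredoxin reductase and *Srxn1* the sulfiredoxin that repairs overoxidized peroxiredoxins. *Srxn1* (chr2:152105524-152111376, plus strand) had 155, 219 and 137 CPM in LL2, 155, 147 and 136 in EO771 and 100.4, 78.3 and 81.5 in MC38. It had 73.3, 73.3 and 69.4 CPM in Pan02 and 29.96, 37.8 and 41.6 in B16. LL2 and EO771 overlapped at the top, and the B16 tumors lay below the other 12. The log2 fold change was 1.16 (SE 0.12, edgeR, adjusted p = 5.87e-06) in LL2, 0.88 (SE 0.12, edgeR, adjusted p = 4.75e-05) in EO771, under 2-fold, and -1.61 (SE 0.15, edgeR, adjusted p = 5.63e-07) in B16. In MC38 it was -0.05, so this target did not follow the order of *Nqo1*. Without the second LL2 tumor the LL2 value was 0.94 (edgeR, adjusted p = 4.42e-05), under 2-fold. EO771 differed from MC38 (edgeR, adjusted p = 0.00215) and Pan02 from B16 (edgeR, adjusted p = 0.000196). *Txnrd1* (chr10:82859206-82897724, plus strand) ranged from 153 to 397 CPM. It had 397, 377 and 366 CPM in MC38, 334, 370.4 and 279 in LL2 and 286, 227 and 333 in B16. It had 245, 244 and 225 CPM in EO771 and 205, 153 and 167 in Pan02. The log2 fold changes of MC38 and Pan02 were 0.61 (SE 0.11, edgeR, adjusted p = 0.000504) and -0.79 (SE 0.12, edgeR, adjusted p = 9.81e-05), both under 2-fold. The Pan02 tumors were below all others and differed from their neighbour EO771 (edgeR, adjusted p = 0.0193).

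*Hmox1* (chr8:75093618-75100593, plus strand), heme oxygenase 1, opens the heme ring and is also strongly made by macrophages that take up red cells. It had 815, 704 and 239 CPM in LL2 and 722, 201 and 456 in MC38, a spread of over 3-fold within each model. It had 149.5, 233 and 252 CPM in B16, 198, 181 and 314 in Pan02 and 197, 161 and 151 in EO771. The LL2 range overlapped those of all other models but EO771. The log2 fold change in LL2 was 1.24 (SE 0.33, edgeR, adjusted p = 0.00837), and it missed the threshold without the first LL2 tumor, at 0.94 (edgeR, adjusted p = 0.0782), or without the second, at 1.09 (edgeR, adjusted p = 0.0534). In MC38 it was 0.80 (SE 0.34, edgeR, adjusted p = 0.0631), which did not pass, and no pair of neighbours differed. The 8 macrophage markers, all at 1 RPKM or more in every LL2 and MC38 tumor, summed to 1052, 1573 and 2278 RPKM in the same 3 LL2 tumors, and to 1504, 1238 and 2152 in MC38. In the other models the sums ran from 379 to 718 in B16, 1475 to 1694 in EO771 and 1169 to 5056 in Pan02. The 3 erythroid genes summed to 143, 58.3 and 21.8 RPKM in LL2 and 336, 82.2 and 427 in MC38. In LL2 the tumor lowest for *Hmox1* was the highest for macrophage markers and the lowest for erythroid genes. In MC38 the tumor lowest for *Hmox1* was the lowest for both. The part of either in the result was not tested.

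Over the 10 members, 15 of 40 pairs of neighbouring models differed (37.5%, against 27.1% of the neighbouring pairs over all genes). *Nqo1* had 4 of these, *Nfe2l2*, *Gclm*, *Srxn1* and *Gsr* had 2 each, *Keap1*, *Txnrd1* and *Slc7a11* had 1 each, and *Gclc* and *Hmox1* had none. The order of models was not shared by the targets. MC38 was highest for *Nqo1*, *Gclc*, *Gclm*, *Txnrd1*, *Slc7a11* and *Gsr*, and LL2 for *Hmox1* and *Srxn1*. At the lower end, B16 was lowest for *Gclc*, *Srxn1* and *Gsr*, EO771 for *Gclm*, *Hmox1* and *Slc7a11*, and Pan02 for *Nqo1* and *Txnrd1*.

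**Figure D2:**
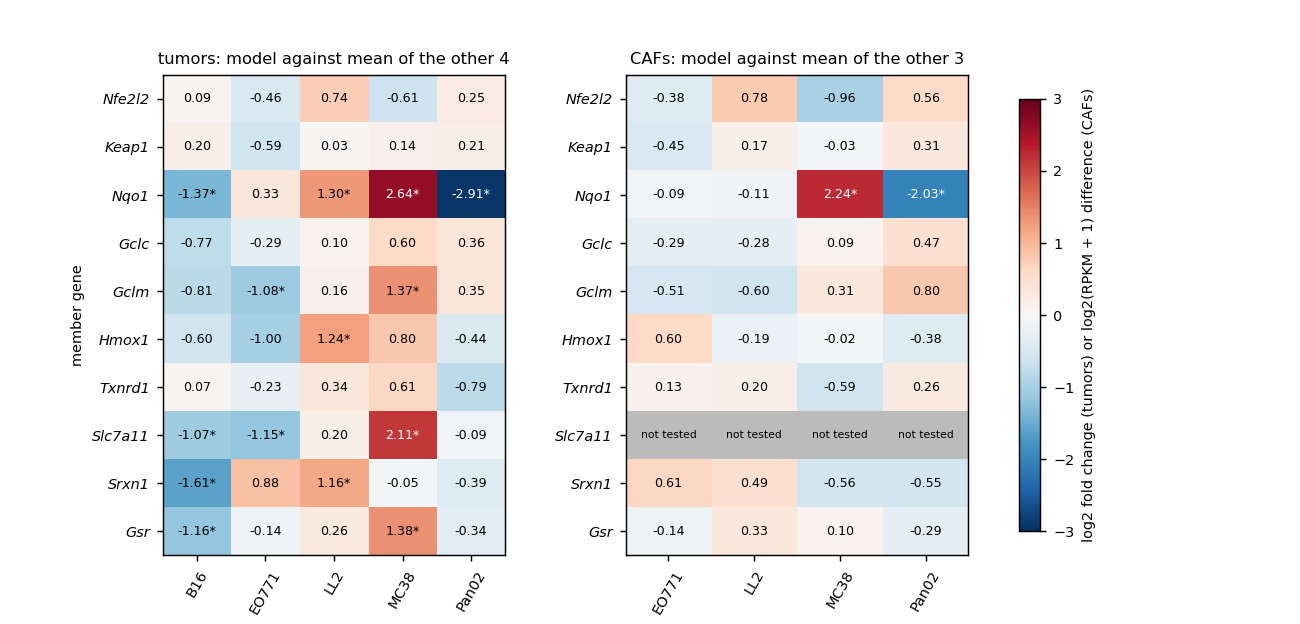
Log2 fold change of each member (rows) in each tumor model against the mean of the other 4 (left) and difference of log2(RPKM + 1) in each CAF model against the mean of the other 3 (right), in color and as numbers. Asterisks mark values of at least 1 either way with an adjusted p under 0.05, which are 14 in tumors and, for *Nqo1* alone, 2 in CAFs.

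Other genes of the pathway, 58 in 9 lists, were counted against all genes in the same way. The lists hold 8 Atf4 genes and repressors of Nrf2 beside its targets. By the F test, 53 of the 58 differed among tumor models (91.4%), near the 91.1% of all genes. In MC38 tumors 5 were higher (8.62%, against 11.2% of all genes) and 4 lower (6.90%, against 8.24%), with a median log2 fold change of 0.06. In B16 tumors 11 were higher (18.97%, against 13.1% of all genes) and 5 lower (8.62%, against 19.6%), with a median of 0.09. In Pan02 tumors 11 were higher (18.97%, against 18.8% of all genes) and 3 lower (5.17%, against 7.93%). In EO771 tumors 4 were higher (6.90%, against 9.71% of all genes) and 11 lower (18.97%, against 13.7%). *Gsta1*, which passed the filter on low counts through B16 alone, is among the 11 higher in B16 and the 11 lower in EO771. *Gpx2*, with few counts, is also among the 11 in B16. In LL2 tumors 1 was higher (1.72%, against 8.51% of all genes) and 8 lower (13.8%, against 8.29%). The MC38 counts were thus near the shares of all genes, and 3 of the 5 higher genes were Atf4 genes.

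The glutathione-using enzymes differed most in B16 and EO771. Of 10 such genes, 6 were higher in B16 tumors (against 13.1% of all genes) and none lower (against 19.6%), with a median log2 fold change of 1.91. In EO771 tumors 5 were lower (against 13.7%) and none higher (against 9.71%). *Gsta1*, a glutathione S-transferase, had 13.5 to 17.7 CPM in B16 and at most 0.433 in any other tumor, so it passed the filter on low counts through B16 alone and its values are a description. It had no counts in EO771, where it is 1 of the 5. *Gsta4*, of the same family, had 0.594 to 0.959 CPM in EO771 and at least 2.32 elsewhere, a log2 fold change of -4.92 (edgeR, adjusted p = 2.7e-08). *Gpx2*, a glutathione peroxidase, had 0.196 to 0.998 CPM in B16 and 0 to 0.939 elsewhere, which are few counts, and both it and *Gsta1* are among the 6 in B16. In the list of glutathione synthesis and transport, 1 of 5 other genes was called, *Ggt1*, the surface enzyme that cleaves glutathione. It was higher in B16, at 3.34 (edgeR, adjusted p = 1.07e-08), and in MC38, at 2.70 (edgeR, adjusted p = 3.92e-07), and lower in LL2, at -2.22 (edgeR, adjusted p = 7.91e-05), and in Pan02, at -3.41 (edgeR, adjusted p = 1.93e-06). Of all genes, 13.1% were higher in B16 and 11.2% in MC38, and 8.29% were lower in LL2 and 7.93% in Pan02.

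All 6 genes of quinone, aldehyde and carbonyl reduction other than *Nqo1* were called in EO771 tumors. There 3 were higher (against 9.71% of all genes) and 3 lower (against 13.7%). In Pan02, the model with the least *Nqo1*, 4 of the 6 were higher (against 18.8%) and none lower (against 7.93%). *Aldh3a1*, an aldehyde dehydrogenase, had 16.6 to 51.3 CPM in Pan02 and at most 2.44 elsewhere, with a log2 fold change of 6.34 (edgeR, adjusted p = 3.81e-08). *Ephx1*, the microsomal epoxide hydrolase, had 213 to 273 CPM in Pan02 and was lowest against the others in MC38, at -2.99 (edgeR, adjusted p = 2.61e-07). *Ptgr1*, a prostaglandin reductase, had 1.28 to 2.99 CPM in B16 and at least 10.99 elsewhere (-3.44, edgeR, adjusted p = 9.03e-07). Within this list no single model was therefore high for all genes.

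Among the partners and relatives of Nrf2, 6 genes, *Nfe2l3* was higher in Pan02 at 3.74 (edgeR, adjusted p = 2.35e-06), *Bach2*, which encodes a repressor that competes for small Maf proteins, was higher in Pan02 at 1.95 (edgeR, adjusted p = 1.08e-05), and *Maff*, a small Maf, was lower in B16 at -1.73 (edgeR, adjusted p = 1.83e-06). None of 6 genes around Keap1 and the degradation or repression of Nrf2 was called in any tumor model. Per model, 8.51% to 18.8% of all genes were higher and 7.93% to 19.6% lower. By the F test, 5 of these 6 genes differed among tumor models (83.3%, against 91.1% of all genes). *Prdx1*, a peroxiredoxin, was higher in B16 (1.25, edgeR, adjusted p = 8.39e-07), and *Txnip*, which inhibits thioredoxin, was higher in Pan02 (1.24, edgeR, adjusted p = 7.85e-05), the other call among the 5 thioredoxin genes being *Txnip* lower in MC38. Of 6 heme and iron genes, *Blvrb*, a biliverdin reductase, was lower in B16 (-1.36, edgeR, adjusted p = 2.8e-06) and *Ftl1*, ferritin light chain, higher (1.03, edgeR, adjusted p = 3.33e-05). Of 6 genes that supply NADPH, *Me1*, the cytosolic malic enzyme, was higher in Pan02 (1.52, edgeR, adjusted p = 2.22e-07) and lower in EO771.

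*Slc7a11* is also a target of the stress factor Atf4, and 8 genes of that response were read beside it. In MC38 tumors 3 of the 8 were higher (against 11.2% of all genes) and none lower (against 8.24%), with a median log2 fold change of 0.88. *Trib3*, a pseudokinase induced by Atf4, had 117 to 182 CPM in MC38 and at most 85.5 elsewhere (2.29, edgeR, adjusted p = 0.000114). *Chac1*, a glutathione-degrading enzyme, was lower in LL2 (-1.94, edgeR, adjusted p = 0.00151), and *Asns*, asparagine synthetase, was lower in Pan02 (-1.54, edgeR, adjusted p = 0.00231). *Atf4* itself was called in no model.

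**Figure D3:**
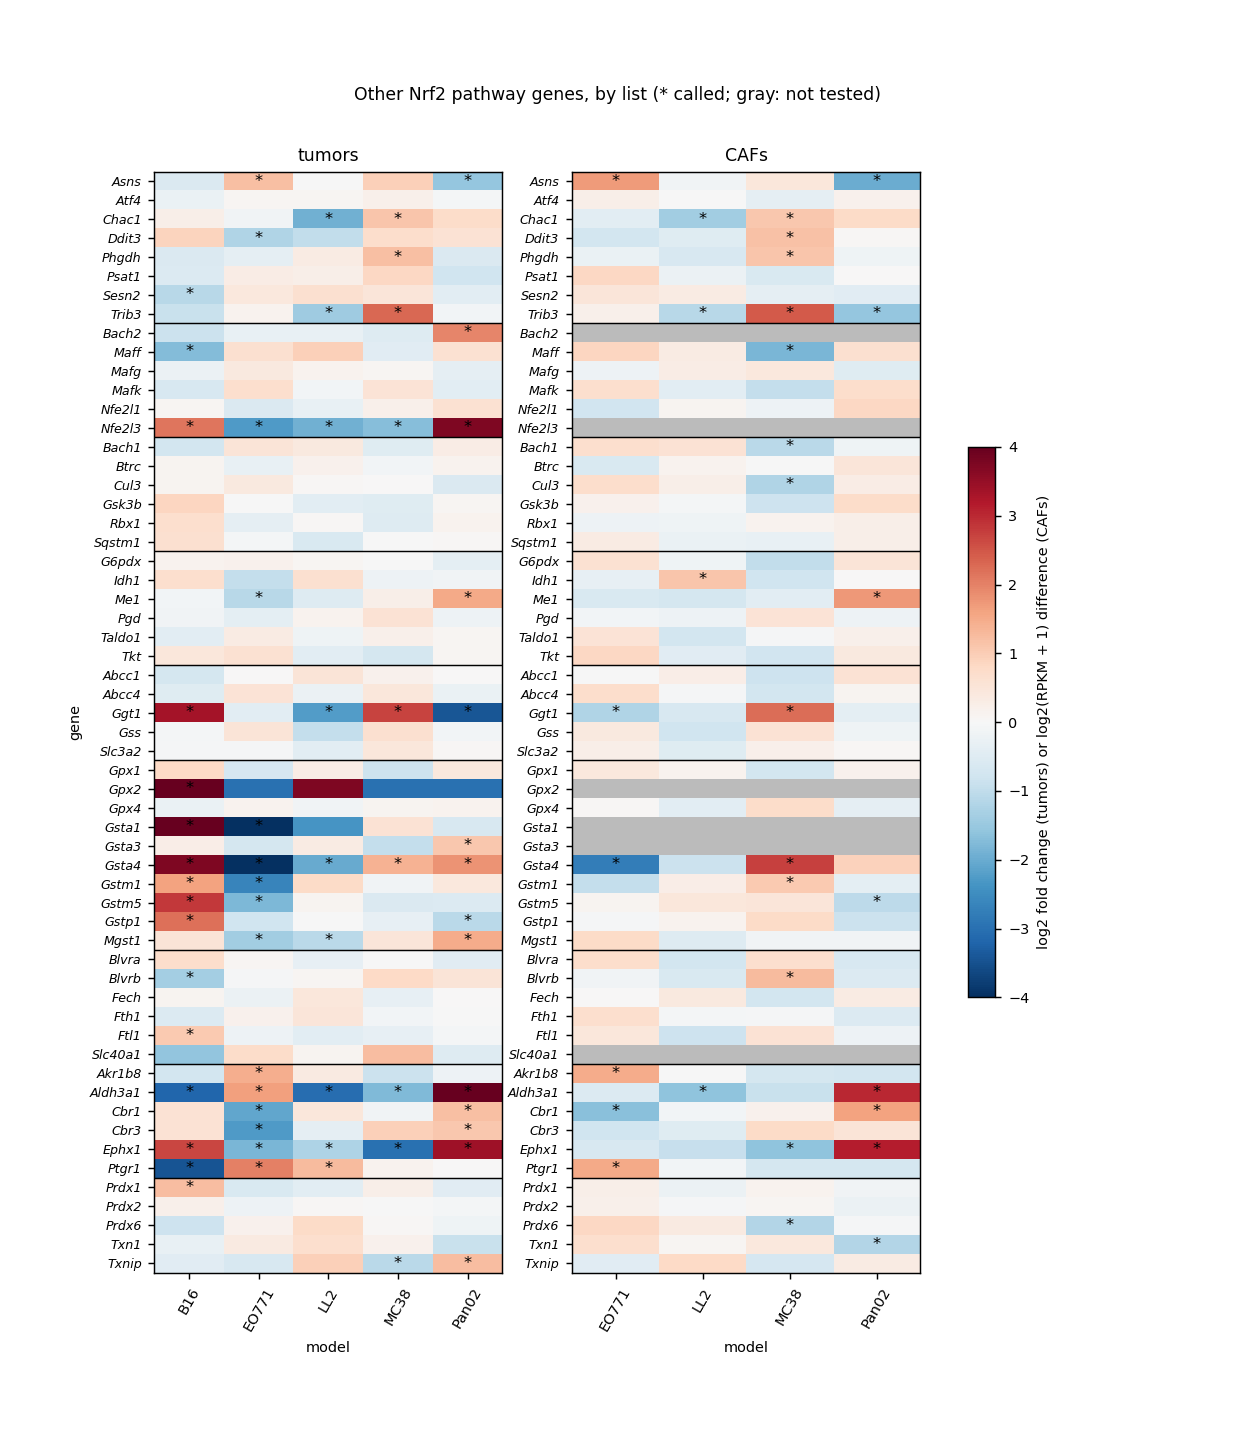
Log2 fold change in tumors (left) and difference of log2(RPKM + 1) in CAFs (right) of each model against the others for 58 further pathway genes, in rows grouped by list. Colors stop at 4 either way, asterisks mark calls, and gray rows were not tested in CAFs. *Ggt1*, *Nfe2l3* and *Ephx1* are strongly colored in both directions in tumors.

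The CAF libraries need a caution before their values. The 10 fibroblast markers were all at 1 RPKM or more in all 8 libraries and summed to 9139 to 9889.8 RPKM in EO771, 7051 to 8297 in LL2, 2475 to 3998 in Pan02, and 6779.8 and 1561 in the first and second MC38 library. *Col1a1* differed within MC38, at 2771 and 467 RPKM. The 5 epithelial markers summed to 494 to 500.3 RPKM in EO771, 200.4 to 209 in LL2 and 832 to 1121 in Pan02 CAFs, *Krt8* making up nearly all of it in EO771 and *Krt8* and *Krt18* most of it in LL2 and Pan02. They summed to 1.72 to 3.73 in MC38, and *Epcam* was at most 2.46 RPKM in any CAF library. Of 12 genes chosen because their tumor counts were restricted to 1 model, all 12 were higher in both CAF libraries of that model than in any other CAF library. *Hand1* had 46.5 to 49.3 RPKM in EO771 CAFs and 78.1 to 94.6 in EO771 tumors, and *Fam159b* had 58.7 to 61.0 RPKM in MC38 CAFs and 82.0 to 132 in MC38 tumors. Not all 12 were lower in CAFs. The CAF and tumor ranges of *Dkk2*, *Tex13b* and *Ehf* overlapped, with *Dkk2* at 133 to 156 RPKM in LL2 CAFs and 90.5 to 150 in LL2 tumors. *Elavl2* was low, at 0.123 to 0.762 RPKM in MC38 CAFs and at most 0.068 in other CAFs. Differences between CAF models and RNA of the cancer cells of each model cannot be told apart by these libraries, and the part of such RNA in the CAF results was not tested.

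In CAFs, *Nqo1* was the one member to pass the 2-fold threshold in the limma fit of all 8 libraries. It had 8.63 and 13.3 RPKM in the 2 MC38 libraries, 2.67 and 2.33 in EO771, 2.43 and 2.48 in LL2 and 0.32 and 0.235 in Pan02. MC38 lay above and Pan02 below all other libraries, as in the tumors. On the log2(RPKM + 1) scale, which understates the change of low genes, the difference from the other 3 models was 2.24 (SE 0.16, limma, adjusted p = 4.91e-05) in MC38 and -2.03 (SE 0.16, limma, adjusted p = 5.94e-05) in Pan02. Without the second MC38 library the MC38 value was 1.95 (limma, adjusted p = 9.52e-05), with the lone library taken to vary like the other groups. Counts recovered from the RPKM were 8 and 6.50 in Pan02 and 176 and 190.0 in MC38, and on these edgeR gave log2 fold changes of -3.81 in Pan02 and 3.14 in MC38. MC38 had thus 1 of 9 tested members higher (against 10.9% of all genes) and none lower (9.87%), and Pan02 had 1 lower (against 8.41%) and none higher (9.73%). No member was called in EO771, where 8.05% of all genes were higher and 7.06% lower, or in LL2, with 3.89% and 5.13%. Of the 9 tested members, 7 differed among the 4 models by the F test (limma, adjusted p under 0.05), against 80.4% of all genes, and *Gclc* and *Gsr* did not. Leaving out single libraries gave 5 to 9 differing members, and 8 without the second MC38 library, *Gclc* being the one added.

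Smaller differences, under 2-fold, passed the adjusted p alone. *Nfe2l2* had 46.6 and 50.6 RPKM in LL2, 46.5 and 40.4 in Pan02, 23.4 and 29.2 in EO771 and 18.3 and 19.8 in MC38 CAFs. LL2 was highest and MC38 lowest, as in tumors, with differences of 0.78 (SE 0.12, limma, adjusted p = 0.00286) and -0.96 (SE 0.12, limma, adjusted p = 0.000428), and without the second MC38 library MC38 reached -1.01 (limma, adjusted p = 0.00123), past the 2-fold threshold. It also passed without the first EO771 library, and on recovered counts of all 8 libraries, at -1.03 (edgeR, adjusted p = 0.000454). *Srxn1* fell into a higher and a lower pair of models, with 28.8 and 30.5 RPKM in EO771 and 28.0 and 27.4 in LL2 against 15.4 and 16.05 in Pan02 and 16.2 and 15.2 in MC38. Its difference was 0.61 (SE 0.09, limma, adjusted p = 0.00136) in EO771 and -0.56 (SE 0.09, limma, adjusted p = 0.00149) in MC38. *Gclm* was highest in Pan02, with 18.9 and 23.0 RPKM, above all other libraries (0.80, SE 0.13, limma, adjusted p = 0.0021). *Txnrd1* was lowest in MC38, with 34.4 and 38.3 RPKM against 54.9 and 55.5 in LL2, and the difference was -0.59 (SE 0.09, limma, adjusted p = 0.00132). Without the second MC38 library the MC38 values were -0.51 for *Srxn1* (limma, adjusted p = 0.0055) and -0.67 for *Txnrd1* (limma, adjusted p = 0.00149).

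*Hmox1* had 85.4 and 108 RPKM in EO771 CAFs, above the 49.3 to 72.6 of the other libraries, a difference of 0.60 (SE 0.17, limma, adjusted p = 0.0205), and the adjusted p rose to 0.204 (limma) with 1 library left out. The 8 macrophage markers summed to 149 to 193 RPKM in EO771 CAFs, where 7 of them reached 1 RPKM in both libraries, and to at most 24.3 in the others, with *C1qa* at 44.0 and 58.4 RPKM, although CD45+ cells had been depleted before the sort. Their part in the *Hmox1* level was not tested. *Keap1* ranged from 18.2 to 29.3 RPKM, *Gclc* from 7.14 to 12.7 and *Gsr* from 34.8 to 58.3. For *Keap1*, EO771 CAFs were again below all others, at 18.2 and 20.1 RPKM (-0.45, SE 0.11, limma, adjusted p = 0.0122), and with 1 library left out the adjusted p rose to 0.138 (limma). *Slc7a11* did not reach 1 RPKM in any CAF library. It had 0.579 and 0.433 RPKM in MC38, 0.209 and 0.264 in LL2, 0.071 and 0.087 in EO771 and 0.067 and 0.021 in Pan02, which were 3.50 to 70.5 recovered counts. On these counts edgeR put MC38 higher, at 2.37 (adjusted p = 0.000721), and Pan02 and EO771 lower, at -2.21 (adjusted p = 0.00476) and -1.13 (adjusted p = 0.0482).

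**Figure D4:**
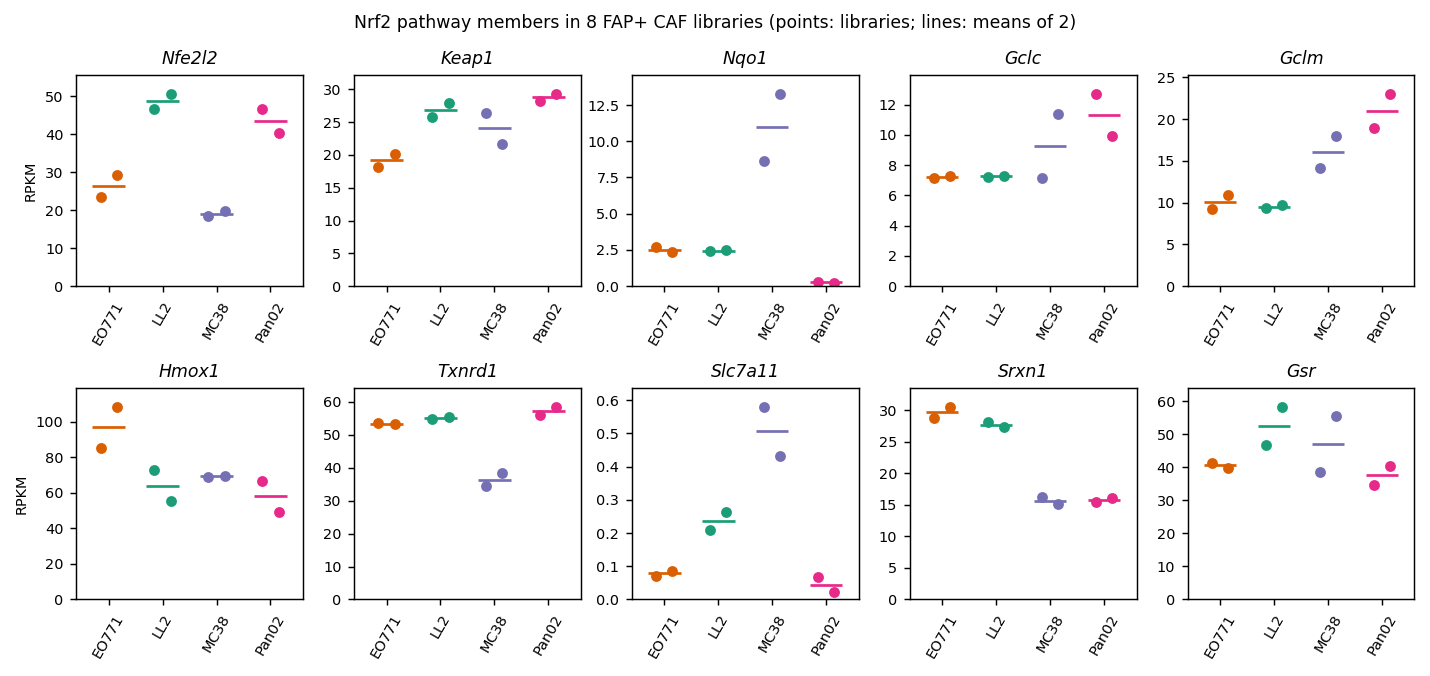
RPKM of each member (vertical axes, each from 0) in the 8 CAF libraries by model (horizontal axes), with points for libraries and lines for the means of 2. MC38 lies above and Pan02 below the other models for *Nqo1*, and MC38 lies below the others for *Nfe2l2* and *Txnrd1*.

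Among the 58 further genes, 52 were tested in CAFs and 43 differed among models by the F test (82.7%, against 80.4% of all genes). In MC38 CAFs 8 were higher (15.4%, against 10.9% of all genes) and 5 lower (9.62%, against 9.87%), and 8 and 4 without the second library. In Pan02 CAFs 4 were higher (7.69%, against 9.73% of all genes) and 4 lower (7.69%, against 8.41%). In EO771 CAFs 3 were higher (5.77%, against 8.05% of all genes) and 3 lower (5.77%, against 7.06%). In LL2 CAFs 1 was higher (1.92%, against 3.89% of all genes) and 3 lower (5.77%, against 5.13%). Of the 8 Atf4 genes, 4 were higher in MC38 (against 10.9% of all genes) and none lower (against 9.87%), with *Trib3* at 33.2 and 54.2 RPKM against at most 12.7 elsewhere (2.44, limma, adjusted p = 6e-05). *Ggt1* was higher in MC38 (2.23), at 4.83 to 6.02 RPKM against at most 0.688 elsewhere. It passed the filter on low values through MC38 alone, so its value is a description, though it is 1 of the 8. *Asns* was lower in Pan02 (-1.99, limma, adjusted p = 0.000198) and *Chac1* lower in LL2 (-1.39, limma, adjusted p = 0.0236). In Pan02 CAFs *Ephx1* was higher (3.14, limma, adjusted p = 0.000278), as was *Me1* (1.72, limma, adjusted p = 2.56e-05). *Aldh3a1* was higher there too (3.02), at 9.65 to 12.3 RPKM against at most 0.931 elsewhere. It passed the filter through Pan02 alone, so its value is a description, though it is 1 of the 4. All 3 genes were also higher in Pan02 tumors. Near Keap1, 2 of 6 genes were lower in MC38 CAFs (against 9.87% of all genes), none was higher (against 10.9%), and none was called in other CAFs. The 2 in MC38 CAFs were *Cul3*, the scaffold of the Keap1 ligase (-1.21, limma, adjusted p = 7.36e-05), and *Bach1*, a repressor of Nrf2 targets (-1.07, limma, adjusted p = 0.000249). *Maff* was lower there too (-1.83, limma, adjusted p = 0.00583), as was *Prdx6* (-1.17, limma, adjusted p = 0.000617), while *Blvrb* (1.28, limma, adjusted p = 0.000148) and *Gstm1* (1.06, limma, adjusted p = 0.0033) were higher. *Gsta4* (-2.77, limma, adjusted p = 6.32e-05) and the carbonyl reductase *Cbr1* (-1.66, limma, adjusted p = 6.25e-05) were lower in EO771, *Txn1* (-1.16, limma, adjusted p = 0.000501) and *Gstm5* (-1.03, limma, adjusted p = 0.00342) in Pan02, and *Idh1*, isocitrate dehydrogenase, was higher in LL2 (1.099, limma, adjusted p = 0.000818). The tumor and CAF values share no library, but where tumor-restricted genes were present in a model's CAFs the 2 tables cannot be taken as independent.

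Tumor and CAF levels can be set side by side only as a description, since the tables were normalized separately and no test was made between them. With 9 members in 4 models, the mean RPKM was higher in tumors for 32 of 36 combinations, and all tumors lay above both CAF libraries in 28, the reverse in 1. By percentile rank among the 13208 genes tested in both tables, tumors were higher in 29 of 36. None of these counts was made for all genes, so they are not read as particular to the members. Among these 9 members the widest gap was for *Hmox1* in LL2, at 372 RPKM in tumors and 63.9 in CAFs, and in MC38, at 318 and 69.3. *Slc7a11*, not among the 9, lay higher in all tumors than in both CAF libraries in all 4 models. Its ratio was wider in Pan02, at 0.778 and 0.044 RPKM, which are low values. In MC38, *Gclm* had 56.9 RPKM in tumors and 16.1 in CAFs, and *Gsr* had 135 and 47.1, so both lay between other models in CAFs and above all of them in tumors. For *Nqo1* the gap was smaller, 15.8 against 10.95 RPKM in MC38 and 0.628 against 0.277 in Pan02. The 4 combinations with higher means in CAFs were *Keap1* in EO771, LL2 and Pan02, by at most 1.14-fold, and *Txnrd1* in Pan02, at 48.3 RPKM in tumors and 57.2 in CAFs. For both genes the transcript with the largest mean was not the same in the 2 tables, which changes the length the counts were divided by. For *Keap1* the lengths were 4463 bases in tumors and 3143 in CAFs. Its mean over the CAF libraries was 24.7 RPKM on the CAF transcript and 18.6 on the tumor transcript. The *Keap1* combinations, with EO771 the 1 reverse above, thus compare unlike lengths and were not recomputed on a shared transcript. For *Txnrd1* the lengths were 3400 and 3294 bases, with CAF means of 50.1 and 50.5 RPKM.

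**Figure D5:**
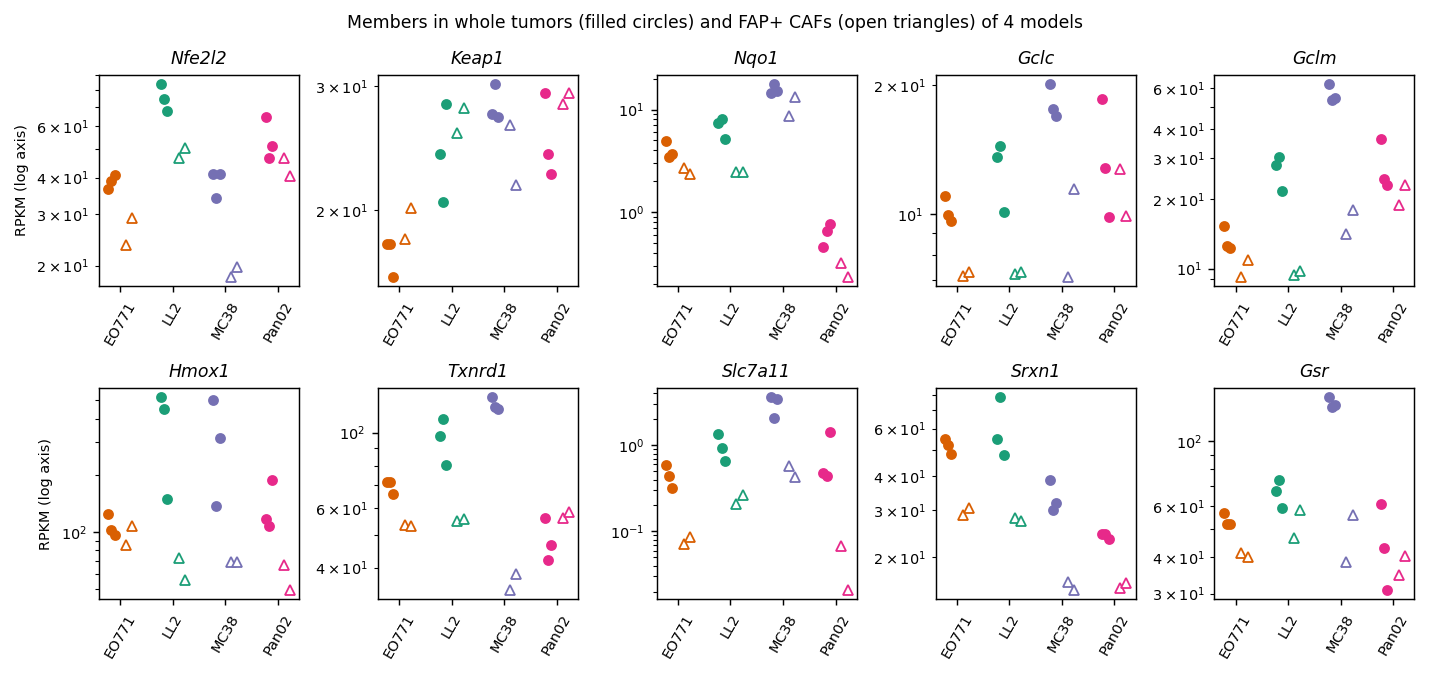
RPKM of each member (vertical log axes) in whole tumors (filled circles, 3 per model) and FAP+ CAFs (open triangles, 2 per model) of 4 models (horizontal axes). Tumors lie above CAFs for most members, MC38 is highest and Pan02 lowest for *Nqo1* in both, and MC38 and Pan02 change places for *Txnrd1*.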

How the data were processed

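Expected counts per RefSeq transcript of 15 whole tumors, which the authors deposited as unnormalized HOMER counts after STAR (2.5.0c) alignment to mm10, and RPKM of 8 sorted CAF libraries, which the authors deposited with length and depth already divided out, were analysed. Libraries were poly(A)-selected and unstranded. Members and gene lists were chosen with earlier results of these data known. Tumor counts were rounded and fitted with edgeR's quasi-likelihood test (R 4.3.3, edgeR 4.0.16, TMM scaling, filterByExpr, 1 term per model). CAF values were fitted with limma (3.58.1, variance trend) as log2(RPKM + 1), keeping genes that reached 1 RPKM in 2 or more libraries. All p-values were adjusted over all 15722 or 13598 genes tested (Benjamini-Hochberg). CAF counts were also recovered from the RPKM (100% of low values lay within 0.25 of a step of a whole number of steps, a step being taken as 0.5 counts as in the tumor table) and fitted with edgeR. DESeq2 (1.42.0), other scalings, filters and transcripts, and leaving out each library were alternatives. On simulated data with 100 changed genes per fold size, edgeR recovered 71 at 2-fold and 99 at 4-fold for LL2 tumors over 15722 genes, with 10 false calls in all. In the CAF design, limma recovered 99 at 2-fold and 100 at 4-fold for LL2 over 13598 genes, with 14 false calls in all. Recovery in either design was counted at an adjusted p under 0.05 alone, and recovery with the 2-fold threshold was not tested. At the spread of single members, such as *Hmox1* in LL2 tumors, recovery was not tested either, so these counts are not read for them. Named beside the members were at most 3 called genes per list and table, those with the largest change. The 12 genes restricted to 1 tumor model were chosen on tumor values. Of each table, 2 transcripts without a gene were left out, and 5 columns of CT26 samples were not used here. Nothing in the sources says which tumors shared a mouse, so p-values measure the spread between samples, which may be technical in part.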

Additional observations from a re-analysis of the deposited data

Results flagged for a closer look

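*Txnrd1* moved in opposite directions in tumors and CAFs of a model, with every library on its side in RPKM. In CPM, 1 LL2 tumor, at 370.4, lay above the lowest MC38 tumor, at 366. On the log2(RPKM + 1) scale, MC38 tumors were 0.82 above the mean of the other 3 models with CAFs while MC38 CAFs were 0.59 below theirs, which puts the 2 effects 1.41 apart. Pan02 tumors were 0.94 below the others while Pan02 CAFs were 0.26 above, a gap of -1.21. The Pan02 CAF part was small, a fold of 1.20 at an adjusted p just under the threshold (limma, adjusted p = 0.0474). Neither difference between tumors and CAFs was tested, since the tables were normalized separately and their *Txnrd1* transcripts differ. These were 3400 bases long in tumors and 3294 in CAFs, and gave means of 50.1 and 50.5 RPKM over the CAF libraries. Each length is the same for all libraries of its table. The part of the normalization or the transcript in the gap was not tested.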

How the results depend on the processing

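All 10 members differed among tumor models and 15 of 40 neighbouring pairs differed, 13 to 16 with single tumors left out. Of 16 called member contrasts, 12 were called under every alternative and 4 were not, namely *Slc7a11* in B16 and EO771 and *Hmox1* and *Srxn1* in LL2, always with a tumor left out, and none reversed. With single libraries left out, the called members ranged from 3 to 4 in B16 tumors, 1 to 3 in EO771, 1 to 3 in LL2, 4 to 5 in MC38 and 1 to 2 in MC38 CAFs. The EO771 count of 1 was met without B16 tumor 3, Pan02 tumor 3, any EO771 tumor, or MC38 tumor 1 or 3, the LL2 count of 1 without LL2 tumor 2, and the MC38 CAF count of 2 without EO771 CAF 1 or MC38 CAF 2. Without the fold threshold, 6 members were called in EO771 tumors, 5 in LL2, 7 in MC38 and 5 in Pan02, and 5 in EO771 CAFs, 3 in LL2, 4 in MC38 and 6 in Pan02. On recovered counts, edgeR called 1 member in EO771 CAFs, 3 in MC38 and 2 in Pan02, the added ones being *Slc7a11*, then tested, in all 3 models and *Nfe2l2* in MC38. Shares of all genes without the fold threshold or on recovered counts are not given here, so these counts describe the members alone. Members differing among CAF models ranged from 5 to 9 with single libraries left out. Total-count scaling moved the median of all genes by 0.14 in MC38 and -0.11 in Pan02 tumors (log2) and changed no count of called members by over 1.5 times.

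With the replicate number as a block, the tumor counts were 10 members differing among models and 4, 2, 3, 4 and 1 called in B16, EO771, LL2, MC38 and Pan02, with 15 neighbouring pairs, and no call changed. Same-numbered tumors of different models had r of -0.17 to 0.26 over 30 pairs (median 0.03). Those with other numbers had -0.32 to 0.34 over 60 pairs (median 0.01). These ranges overlap and were not tested, so whether the numbers pair the tumors cannot be told from them. No paired analysis was possible for CAFs because their columns carry no replicate numbers. Groups of 2 and 3 libraries and under 10 counts of *Nqo1* in Pan02 CAFs limit the precision.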
